A study of Drosophila melanogaster with 2 samples.

Results

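Binding sites of CG8216-eGFP were examined at 10 genes of the Notch pathway, of 13945 protein-coding genes in the annotation. The members were taken by name, but with earlier results of these data known. They are the 7 E(spl) bHLH genes, which are E(spl)mdelta-HLH, E(spl)mgamma-HLH, E(spl)mbeta-HLH, E(spl)m3-HLH, E(spl)m5-HLH, E(spl)m7-HLH and E(spl)m8-HLH, together with N, Dl and gro. Every peak summit in a gene body or in the 5 kb upstream of its start was assigned to that gene. The experiment was chromatin immunoprecipitation and sequencing (ChIP-seq) with an antibody against GFP on whole Drosophila melanogaster prepupae, animals at the onset of metamorphosis. All animals came from 1 transgenic line that stably expresses CG8216, the product of spab, with GFP at its C terminus, and males and females were pooled. There was 1 group with 2 biological replicates, each from its own biosample, and no other genotype, treatment or stage. The age is labelled as 24 days, where hours may be meant. Whole animals mix all tissues, so the cells that contribute to a peak are not known, and a strong site in few cells cannot be told apart from a weak site in many.

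Notch is a receptor that is cleaved when a ligand such as Delta on a neighbouring cell binds it. The released intracellular part enters the nucleus and joins the DNA-binding protein Su(H) and the coactivator Mastermind at target genes. The E(spl) bHLH genes are classical targets of this complex. They encode repressors that recruit the corepressor Groucho, the product of gro, and keep proneural genes low in cells that do not become neural precursors. In the fly these genes lie side by side on the right arm of chromosome 3, interleaved with genes of the Bearded family, whose products inhibit the ubiquitin ligase Neuralized, and they end next to gro.

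Peaks come from lists deposited by the authors. The reproducible list, cut by the irreproducible discovery rate (IDR), held 5944 peaks, and its signals ran from 149.5 to 4074 with a median of 278. A longer relaxed list of 30000 peaks, background included, exists for each replicate and for the replicates pooled. The signal is the authors' peak value in the caller's own units, it is pooled over both replicates in the reproducible list, and rank 1 is the strongest of the 5944. Signals of the replicates' own lists are not scaled to each other, and the read depth behind them is unknown. Because the IDR list was made from both replicates, its peaks tend to be found in each. Its peaks are also the 5944 strongest of the pooled list. The word reproducible therefore names the list here, and does not mean that each peak was strong in both replicates. With 2 replicates of 1 group no test between samples was possible, and all comparisons are descriptions set beside the same measure over all genes or all peaks.

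Reproducible summits were present at 9 of the 10 genes, where 27.3% of all protein-coding genes had one. The members were chosen with earlier results of these data known. This and the later comparisons with all genes or the genome are therefore not independent of that choice. Among the 4331 genes whose body plus upstream window measured 5.5 to 6.5 kb, 17.2% had a reproducible summit. All E(spl) bHLH genes are in this size class, and all of them but m5 had one. N, Dl and gro are outside it, with windows of 42.4, 28.5 and 13.2 kb, which have more room for a summit. The windows of neighbouring genes overlap in the complex, so the 9 genes are not independent. They held 22 distinct summits, of which 10 lay in introns, 10 between genes, 1 in a non-coding exon and 1 in a 3′ UTR. None of the 22 lay in coding sequence. The same classes were not counted over the whole list, so whether these places are particular to the members is not known. Near start sites, 6 of the 10 genes had a summit within 500 bp, against 10.9% of all protein-coding genes. Within 250 bp only mbeta and gro had one, against 7.64%. In the pooled relaxed list every member had at least 1 summit, as did 53% of all protein-coding genes.

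The sites were strong for this data set. The strongest summit of a member had a median signal of 931, against 388 over the 3809 gene windows that held one (quartiles 238 and 715) and 345 over windows of similar length. For 7 members the strongest summit was among the 594 strongest of the whole list, where 5.61% of protein-coding genes and 3.02% of those with windows of similar length had such a summit. That limit was chosen after the values were seen. The 7 include gro, and the median of 931 includes N, Dl and gro, whose windows are longer than those of similar length. mdelta with mgamma, and m7 with m8, have the same strongest summit. They are counted separately among the 7 and in the median, so these are not independent. mbeta led in both replicates, and m7, gro, Dl and N followed in this order in both. mdelta and m3 changed places between the replicates, so their order was not resolved.

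The window of the strongest site of each member is shown, with the sites that mdelta shares with mgamma and m7 with m8 printed once. A much weaker m3 site, 1415 bp upstream, is added because it is the only one of the 22 windows with a Su(H) word, and it was chosen for that. Each is 200 bp centred on the summit, on the forward strand of dm6. Capitals mark TGTGGGAA and its variants CGTGGGAA, TGTGAGAA and CGTGAGAA, which are forms of the Su(H) site, on either strand. They also mark CAGTGCA, its close relative CAGTGTA and the separate word CACTGAG, which are all frequent at CG8216-eGFP summits in general. The sites lie at 3R:25997197–25997396 (mdelta), 3R:26008980–26009179 (mbeta), 3R:26021262–26021461 and 3R:26020308–26020507 (m3), 3R:26036602–26036801 (m7), 3R:26042411–26042610 (gro), 3R:19321650–19321849 (Dl) and X:3162421–3162620 (N).
mdelta, 324 bp upstream: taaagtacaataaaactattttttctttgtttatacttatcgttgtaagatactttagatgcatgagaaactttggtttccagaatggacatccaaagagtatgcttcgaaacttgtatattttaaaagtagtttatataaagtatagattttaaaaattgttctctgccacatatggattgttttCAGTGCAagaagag
mbeta, 3057 bp upstream: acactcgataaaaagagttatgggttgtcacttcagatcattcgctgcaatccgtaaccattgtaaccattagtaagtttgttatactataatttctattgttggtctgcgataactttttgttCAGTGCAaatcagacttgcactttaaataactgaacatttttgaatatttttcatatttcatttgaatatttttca
m3, 461 bp upstream: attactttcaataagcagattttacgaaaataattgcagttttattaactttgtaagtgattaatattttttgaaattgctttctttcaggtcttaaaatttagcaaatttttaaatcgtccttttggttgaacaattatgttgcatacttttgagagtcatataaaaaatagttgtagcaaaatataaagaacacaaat
m3, 1415 bp upstream: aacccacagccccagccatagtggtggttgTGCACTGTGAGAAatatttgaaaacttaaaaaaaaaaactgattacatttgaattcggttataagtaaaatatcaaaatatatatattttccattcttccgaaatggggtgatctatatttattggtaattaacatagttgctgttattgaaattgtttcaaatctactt
m7, 336 bp upstream: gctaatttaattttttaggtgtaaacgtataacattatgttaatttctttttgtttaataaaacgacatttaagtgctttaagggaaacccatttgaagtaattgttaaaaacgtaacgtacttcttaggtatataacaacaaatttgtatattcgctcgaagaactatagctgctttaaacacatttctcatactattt
gro, 130 bp upstream of its nearest start: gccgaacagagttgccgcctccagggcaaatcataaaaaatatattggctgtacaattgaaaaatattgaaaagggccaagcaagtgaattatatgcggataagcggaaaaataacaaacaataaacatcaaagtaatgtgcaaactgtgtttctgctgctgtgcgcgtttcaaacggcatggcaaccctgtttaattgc
Dl, 4467 bp into the gene: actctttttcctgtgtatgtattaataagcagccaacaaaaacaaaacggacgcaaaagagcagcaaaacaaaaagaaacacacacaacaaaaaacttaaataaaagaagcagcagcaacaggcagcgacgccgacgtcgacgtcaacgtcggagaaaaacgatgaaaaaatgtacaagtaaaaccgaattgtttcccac
N, 27651 bp into the gene: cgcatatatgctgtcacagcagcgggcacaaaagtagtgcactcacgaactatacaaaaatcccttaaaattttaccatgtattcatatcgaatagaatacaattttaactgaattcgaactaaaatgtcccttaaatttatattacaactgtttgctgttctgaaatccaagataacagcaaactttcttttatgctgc
CAGTGCA is in the windows at mdelta and mbeta and in the added m3 window, where the Su(H) word overlaps it. These are its only matches in the 22 windows, and the stronger m3 window and those at m7, gro, Dl and N hold none of the marked words.

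The upstream sequences of mgamma, m5 and m8 are shown as a contrast, since these 3 bHLH genes had no reproducible summit within 500 bp of the start and yet carry the Su(H) words. Each is the 300 bp before the start site on the strand of the gene, from 3R:25999551–25999850, 3R:26029736–26030035 (reverse strand) and 3R:26039940–26040239, with the same words in capitals.
mgamma upstream: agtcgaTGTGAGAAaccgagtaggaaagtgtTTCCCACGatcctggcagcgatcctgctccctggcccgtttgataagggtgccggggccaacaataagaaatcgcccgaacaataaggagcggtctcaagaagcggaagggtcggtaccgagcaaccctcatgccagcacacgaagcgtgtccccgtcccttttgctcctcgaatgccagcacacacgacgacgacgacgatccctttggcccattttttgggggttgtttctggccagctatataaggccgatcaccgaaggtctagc
m5 upstream: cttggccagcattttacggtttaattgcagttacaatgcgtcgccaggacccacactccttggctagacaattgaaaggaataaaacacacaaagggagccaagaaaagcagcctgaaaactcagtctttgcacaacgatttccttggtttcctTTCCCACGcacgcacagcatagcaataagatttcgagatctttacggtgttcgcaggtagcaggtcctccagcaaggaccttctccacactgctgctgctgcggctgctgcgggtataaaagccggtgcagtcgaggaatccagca
m8 upstream: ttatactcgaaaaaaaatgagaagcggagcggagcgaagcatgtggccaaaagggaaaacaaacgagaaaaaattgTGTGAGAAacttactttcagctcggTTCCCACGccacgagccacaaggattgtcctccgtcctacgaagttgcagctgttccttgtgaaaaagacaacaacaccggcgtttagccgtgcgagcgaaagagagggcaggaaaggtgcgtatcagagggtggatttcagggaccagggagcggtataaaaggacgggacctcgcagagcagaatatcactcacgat
Every capital run in these 3 sequences is a Su(H) word or its reverse complement.

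At the low-coordinate end of the complex, E(spl)mdelta-HLH (FBgn0002734, 3R:25997621–25998633, forward strand) had 2 sites upstream. The nearer peak (3R:25997004–25997471) had its summit 324 bp before the start, with a signal of 1175 and rank 219. Its signal was 547 in replicate 1 and 643 in replicate 2. The same summit lies 301 bp upstream of CG43116, a gene that runs the other way, so it could be assigned to either promoter. The second peak (3R:25996435–25996829) lay 1044 bp upstream of mdelta in an intron of CG43116, with a signal of 957, rank 385, and 506 and 494 in the replicates. Both sites were among the 594 strongest of the list, and the replicates put them in the same order.

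E(spl)mgamma-HLH (FBgn0002735, 3R:25999851–26000761, forward strand) had no site of its own. Its window reached the same 2 summits, the nearer of them 2554 bp upstream and beyond mdelta. Within 500 bp of its start the only entry in any list was a replicate 1 summit 22 bp upstream with a signal of 19.7, rank 24987 of 30000. The pooled list and replicate 2 had none there.

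E(spl)mbeta-HLH (FBgn0002733, 3R:26005046–26006023, reverse strand) had 3 sites, and the farthest was the strongest of all 22. That peak (3R:26008733–26009379) lay 3057 bp upstream of mbeta and 1813 bp upstream of E(spl)malpha-BFM, a Bearded family gene that faces away from it. Its signal was 1380, rank 130, with 678 in replicate 1 and 706 in replicate 2. A weaker site 2268 bp upstream of mbeta had a signal of 449 (rank 1584), with 204 and 257 in the replicates. At the promoter itself the peak (3R:26005963–26006422) had its summit 170 bp before the start, with a signal of 316, rank 2525, and 160 and 147. The promoter site was therefore the weakest of the 3 in both replicates.

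E(spl)m3-HLH (FBgn0002609, 3R:26021823–26023127, forward strand) had 6 sites, the most of any member. The strongest (3R:26021121–26021669) lay 461 bp upstream with a signal of 1157, rank 232, and 584 and 561 in the replicates. A neighbour 201 bp closer to the gene, 260 bp upstream, had a pooled signal of 792 (rank 610) but 120 in replicate 1 and 381 in replicate 2. The replicates thus differed at this summit, with a log2 ratio of replicate 1 to replicate 2 of −1.67, and its pooled signal was 1.58 times the sum of both. Its peak ends on the same base as that of the stronger summit, so the pair may be a single enriched region. In the whole list 6.77% of neighbouring summits were 180 to 230 bp apart, and none were closer than 199 bp. At 1415 bp upstream a site of intermediate strength had 367 (rank 2066), with 177 and 199. The 3 remaining sites lay near E(spl)m2-BFM, another Bearded family gene that is transcribed away from m3. Of these, the peak at 3R:26017742–26018183, 518 bp upstream of m2, was strong, with a signal of 1053, rank 300, and 513 and 537 in the replicates. The last 2 were weak. One, 2001 bp upstream of m2, had 184 (rank 4776), with 46.9 and 88.1 in the replicates. Replicate 1 has a stronger summit, of 92.5, 131 bp from it. The other, in an exon of lncRNA:CR43643, had 182 (rank 4845), with 85.8 and 139.

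E(spl)m7-HLH (FBgn0002633, 3R:26037038–26038019, forward strand) had 1 site, 336 bp upstream (3R:26036457–26036887). Its signal was 931, rank 417, with 452 in replicate 1 and 481 in replicate 2. E(spl)m8-HLH (FBgn0000591, 3R:26040240–26041008, forward strand) reached only this same summit, 3538 bp upstream and beyond m7. Near the m8 start the pooled relaxed list had a weak entry 247 bp upstream with a signal of 67.1, rank 13668. The replicates' own entries there had signals of 19.1 and 44.2, and their summits lay 456 and 230 bp upstream.

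E(spl)m5-HLH (FBgn0002631, 3R:26028854–26029735, reverse strand) was the only member with no reproducible summit. The pooled relaxed list had 5 summits in its window, the strongest with a signal of 99.3 (rank 9129) at 4847 bp upstream. Replicate 1 had 1 summit there, of 27.1, and replicate 2 had 6, of at most 54.6. None of the lists had a summit within 500 bp of its start.

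gro (FBgn0001139, 3R:26041736–26049911, forward strand), which encodes the corepressor that the E(spl) repressors recruit, has 4 annotated start sites. Its only reproducible summit lay in an intron, 130 bp upstream of the nearest of them (3R:26042302–26042667). The signal was 884, rank 472, with 412 in replicate 1 and 464 in replicate 2.

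**Figure D1:**
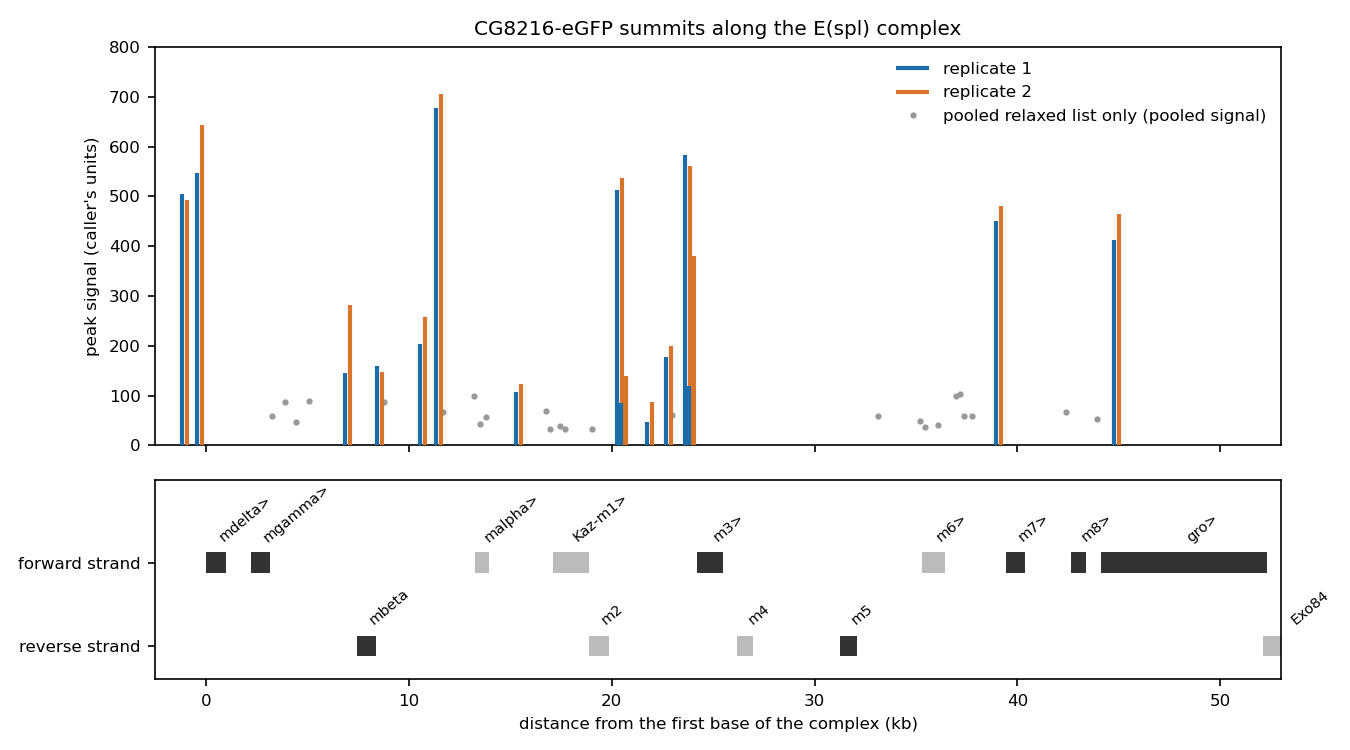
Peak signal of each reproducible summit along the E(spl) complex and just before it, in replicate 1 (blue) and replicate 2 (orange), in the caller's units, against distance from the first base of E(spl)mdelta-HLH in kb. Grey points are summits found only in the pooled relaxed list, black boxes the bHLH genes and gro, grey boxes other protein-coding genes, and the interval between the summits at m3 and m7 holds no bars over 15.1 kb.

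Taken as 1 region, from the first base of mdelta to the last of gro (3R:25997621–26049911, 52.3 kb, 14 protein-coding and 6 non-coding genes), the complex held 13 reproducible summits. The mdelta pair lies just outside these bounds. The density was 0.249 summits per kb, against 0.0444 over the genome. When the genome was cut into 2557 tiles of the same length, the median tile held 1 summit (quartiles 0 and 4, highest 24), and 28 tiles (1.1%) held at least 13. The summed signal of the complex was 8378, against a median of 385 per tile and a highest value of 12235, and 7 tiles (0.274%) reached it. The tiles ran along whole chromosome arms, including long stretches without any reproducible summit. Such stretches lower the genome density and the shares of tiles. The tiles were not matched to the complex by number of genes, so a comparison with regions equally rich in genes was not made. Signals within the complex ran from 182 to 1380 with a median of 449. By strength the order was the site shared by mbeta and malpha, then m3 at 461 bp, m2 at 518 bp, m7 and gro. After these 5, the m3 site at 260 bp and the site 2268 bp upstream of mbeta followed. Next came a site in an exon of lncRNA:CR45038 (3R:26004460–26004654) with a signal of 436, and 146 and 283 in the replicates. A site 1674 bp upstream of Kaz-m1, which encodes a protein with a Kazal-type protease inhibitor domain, had 245, with 107 and 124. Of the other genes of the complex, E(spl)m4-BFM and E(spl)m6-BFM had no reproducible summit in their windows, and Exo84, a subunit of the exocyst that tethers vesicles, had none within 500 bp of its start.

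The sites were unevenly spread. The longest stretch without a reproducible summit ran for 15.1 kb from 260 bp upstream of m3 to 336 bp upstream of m7. It spans the bodies of m3, m4, m5 and m6. The pooled relaxed list had 8 summits there, with signals of 36.5 to 103 and a best rank of 8790. Replicate 1 had 5, of at most 55.3, and replicate 2 had 10, of at most 54.6. The IDR list is made up of the 5944 strongest pooled peaks, so any other pooled entry has to lie below its weakest, at 149.5.

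At the 7 bHLH promoters, reproducible summits and Su(H) words mostly fell on different genes, and mbeta had both. Over the 500 bp upstream, mgamma had 3 Su(H) words, at 488, 294 and 269 bp before the start. m5 had 2, at 309 and 146 bp, and m8 had 2, at 224 and 199 bp. These are the 3 bHLH genes without a reproducible summit within 500 bp. Of the 4 with one, mdelta, m3 and m7 had no Su(H) word and mbeta had 1, at 292 bp, 122 bp from its summit. N, Dl and gro had none. Summits below the weakest reproducible signal, 149.5, were left out of this comparison. At m8 the pooled relaxed list has such a summit 247 bp upstream (signal 67.1), and replicate 2 has its own 230 bp upstream. Both are close to the Su(H) words of m8, while that of replicate 1 lay 456 bp upstream, farther from these words. Among all protein-coding genes, 5.06% had at least 1 such word in 500 bp upstream (705 genes), 0.237% at least 2 (33 genes) and 0.0215% at least 3 (3 genes). Over all genes, a summit within 500 bp of a start was found for 10.8% of those without a word, 12.5% of those with at least 1 and 3.03% (1 of 33) of those with at least 2. The 33 genes include mgamma, m5 and m8, so the share of 3.03% is not independent of the pattern it is set beside. The pattern at the 7 genes was noticed after their values were seen, and 7 neighbouring genes of 1 family are not independent. A word is only a string of letters and shows neither that Su(H) binds it nor that it does not bind elsewhere.

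**Figure D2:**
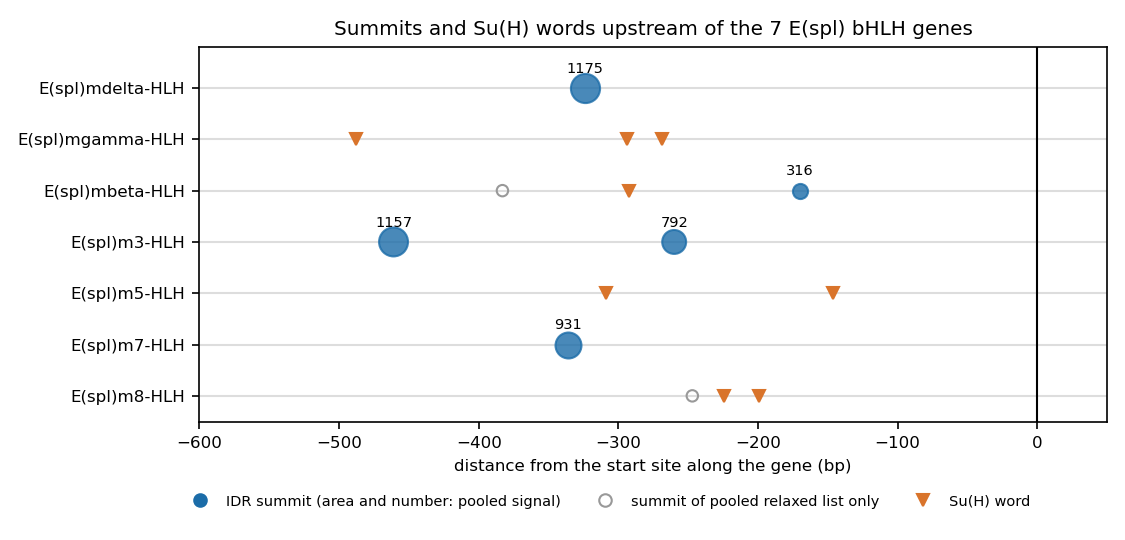
Positions of reproducible summits (filled circles, area and number give the pooled signal), of summits found only in the pooled relaxed list (open circles) and of Su(H) words (triangles) upstream of each bHLH gene, against distance from the start site in bp. mgamma, m5 and m8 carry 3, 2 and 2 words and no filled circle, mdelta, m3 and m7 carry filled circles and no word, and mbeta carries both, a summit of 316 and 1 word.

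For each set of words searched, the share among the member windows was within 2 windows of that among all summits. In the 22 windows of 200 bp, CAGTGCA occurred in 3 (13.6%), against 10.6% of all summit windows and 2.86% of the 200 bp upstream of all protein-coding genes. Its matches lay 89 bp after the summit at mdelta, 27 bp after the strongest mbeta summit and 67 bp before the m3 summit at 1415 bp, where it overlaps TGTGAGAA. CAGTGTA and CACTGAG occurred in none of the 22, against 7.45% and 6.71% of all summit windows. The Su(H) words occurred in 1 (4.55%), against 1.97% of all summit windows and 1.94% of upstream windows. Words known as sites of E(spl) and Hairy repressors were searched as CACGTG and, with other bases in the second part, as CACGCG or else as CACGAG or, in its weaker form, as CACAAG. They occurred in 2 windows (9.09%), both at mbeta, against 14.2% and 15.4%. The E boxes of proneural proteins, CAGCTG and the related CAGGTG, occurred in 1, at the weakest Dl site, against 10.2% and 16.9%. GAGAGAG, a form of the GAGA factor site, occurred in 2, at mbeta and N, against 4.95% and 4.73%. The words were searched on both strands, and with 22 windows a share moves by 4.55% per window. The member windows had a median GC content of 34.25% (20.5 to 57.5%), against 35.0% over all summits.

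N (FBgn0004647, X:3134870–3172221, forward strand), the receptor, had 5 sites, most of them weak. The strongest (X:3162342–3162681) lay in an intron 27651 bp from the start, with a signal of 546, rank 1183, and 318 in replicate 1 and 236 in replicate 2. It was the only one of the 5 above the median of the whole list. The next, 16516 bp into the gene, had 237 (rank 3610), with 95.8 and 145. The site 23962 bp into the gene had 184 (rank 4761), with 34.0 and 145, a log2 ratio of −2.09. At 5298 bp the signal was 169 (rank 5236), with 81.2 and 48.2. The remaining site, 446 bp upstream of the start, had 166 (rank 5332), with 37.7 and 117, and lies in the 3′ UTR of kirre, the neighbouring gene. The replicates therefore did not order the weaker N sites alike. Replicate 1 was the higher at the strongest site and replicate 2 at those 16516 and 23962 bp into the gene and 446 bp upstream. At 5298 bp the direction depends on the match, since replicate 2 also has a summit of 97.0, 121 bp from the reproducible one, against the nearer 48.2. Replicate 1 likewise has 53.4 at 139 bp from the site 446 bp upstream of N.

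Dl (FBgn0000463, 3R:19302731–19326217, reverse strand), a ligand of Notch, had 4 sites, all in introns and none within 500 bp of the start. The strongest (3R:19321591–19321951) lay 4467 bp into the gene, with a signal of 791, rank 613, and 386 and 406 in the replicates. The second (3R:19314345–19314626), at 11752 bp, had 577, rank 1079, with 276 and 291. At these 2 sites the replicates were close, with log2 ratios of −0.07 in each case. The site at 1777 bp had 171 (rank 5153), with 44.8 and 74.4 for the nearest replicate summits, and replicate 1 also has one of 101 on the other side of the summit, which turns the direction. The site at 3R:19310268–19310727 had 151 (rank 5869), with 89.4 and 55.6. Both are among the weakest of the list, where the lowest signal is 149.5.

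**Figure D3:**
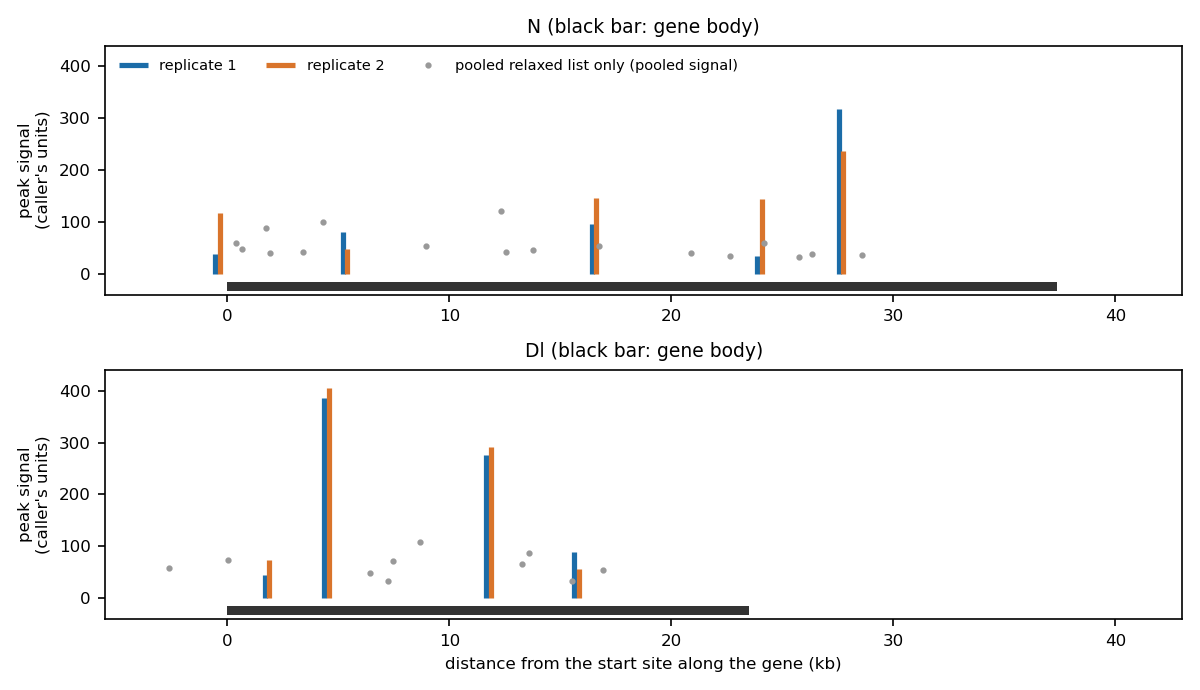
Peak signal of each reproducible summit at N and Dl in replicate 1 (blue) and replicate 2 (orange), in the caller's units, against distance from the start along the gene in kb, with summits found only in the pooled relaxed list as grey points. N has 1 site above 200 in both replicates, at 27651 bp, and Dl has 2, at 4467 and 11752 bp.

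All 22 summits had a match within 100 bp in both replicates, as did 5621 of the 5944 (94.6%). Over the 22, the log2 ratio of the signals, replicate 1 over replicate 2, had a median of −0.13 (SD 0.72, from −2.09 to 0.75), against −0.16 over all matched summits (SD 0.44). Replicate 2 was higher at 16 of the 22 (72.7%), against 70.0% of all matched summits. The middle 95% of all ratios ran from −1.12 to 0.61, and 17 of the 22 lay inside it. The 5 outside were the m3 site at 260 bp, N at 446 bp upstream, at 5298 bp and at 23962 bp, and the weakest Dl site. Apart from that m3 site, these had pooled signals of at most 184. By the nearest match, the Dl site at 1777 bp was outside the 5944 strongest peaks of both replicates (ranks 9541 and 6966). The N sites at 446 bp upstream, 5298 bp and 23962 bp were outside them in a single replicate. So were the weakest Dl site and the m2 site at 2001 bp. When the strongest replicate summit within 150 bp was taken in place of the nearest, a choice added after the data were seen, 4 of the 22 sites changed values, 18 lay inside the middle 95% and 15 were higher in replicate 2. The N site at 5298 bp was then no longer outside, and at that site, at the Dl site at 1777 bp and at the m2 site at 2001 bp the direction turned.

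**Figure D4:**
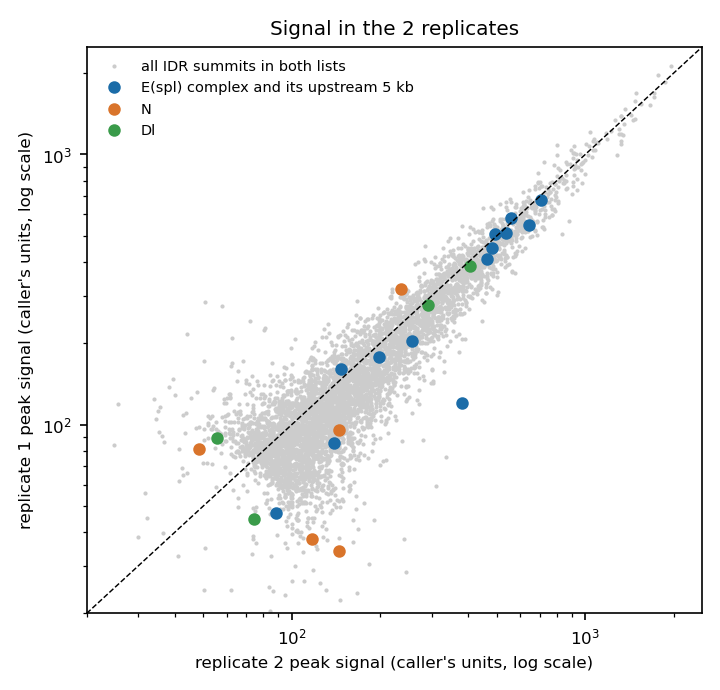
Signal in replicate 1 against replicate 2 for every reproducible summit matched in both (grey) and for the member summits of the E(spl) complex and its upstream 5 kb (blue), N (orange) and Dl (green), in the caller's units on log axes, with a dashed line at equality. The strong sites lie close to the line, and the m3 site at 260 bp, with 120 and 381, stands below the cloud.

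Close to start sites, the member summits lay mostly upstream. Of the 22, 8 (36.4%) lay within 500 bp of the nearest protein-coding start, against 25.3% of all summits. Of these 8, 7 lay 101 to 500 bp upstream, 0 within 100 bp and 1 downstream. Over all 1504 such summits the numbers were 926, 335 and 243, so 87.5% of the member summits and 61.6% of all were in the upstream interval. The median distance to the nearest protein-coding start was 1596 bp, against 2412 bp over all summits. The member summits were taken because they lay in a gene body or its upstream window, a rule not applied to all summits. That rule alone favours short distances. Neither this median nor the share within 500 bp can therefore show that the member summits lie unusually close to starts.

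Beyond the members, 11 of 23 other Notch pathway genes had a reproducible summit (47.8%, against 27.3% of all protein-coding genes), and 6 had one within 500 bp of a start (26.1%, against 10.9%). Their windows had a median length of 10.3 kb, longer than those of the bHLH genes, and differed widely. A long window has more room for a summit, and no share over genes of matching window length was computed for this list. The longest windows, those of kuz, mam and Smr, all held a summit, but so did the short ones of aph-1 (6.05 kb) and lgd (8.91 kb). neur, which encodes the ubiquitin ligase that activates Delta by endocytosis, had the strongest, in an intron 1723 bp from the nearest start (3R:9031787–9032275). Its signal was 1633, rank 77, with 783 and 847 in the replicates, which is above every member. fng, a glycosyltransferase that modifies the receptor, had 1336 (rank 144), with 669 and 689, at 1440 bp upstream (3L:20950689–20951196). lgd, a regulator of receptor trafficking, had 1245 (rank 179), with 656 and 579, at 103 bp upstream (2L:11106664–11107021). numb, which encodes an inhibitor of Notch that is inherited by 1 daughter cell at asymmetric divisions, had 1034 (rank 311), with 534 and 494, 230 bp upstream of its nearest start (2L:9449352–9449800). The nuclear factors differed among themselves, since mam had a summit of 913 and the corepressor gene Smr one of 842, while Su(H) and its antagonist H had none. Of the γ-secretase subunits, which cleave the receptor, aph-1 had a summit of 561 and Psn, nct and pen-2 had none. kuz, the protease that acts before them, had 764, in a window of 94.3 kb. Weaker ones were found at mib1, a ligase for the ligands (356), at Ser, the other ligand (329), and at CtBP, a corepressor (263). O-fut1, rumi, lqf, spdo, dx, Su(dx) and insv had no reproducible summit.

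Of 8 Bearded family genes, 2, malpha and m2, had reproducible summits in their windows, against 27.3% of all protein-coding genes and 17.2% of those with windows of similar length. They had 3 and 6, the same summits as those of mbeta and m3. m4, m6, Brd, Tom, Ocho and BobA had none. A list of 13 genes outside the complex, called proneural and HES genes here, also held emc and da, which belong to neither class. Of the 13, 6 had a summit (46.2%, against 27.3%), and 2 had one within 500 bp of a start (15.4%, against 10.9%). The median of their strongest signals was 218, against 388 over all gene windows with a summit and 931 for the members. The leading ones were dpn, which encodes a repressor that acts in neural stem cells, with 757, and emc, an inhibitor of proneural proteins, with 718. Hey had 257 and ac, a proneural gene, 180. cwo had 169.5, and h, the Hairy repressor, 153 at 177 bp upstream, with 67.8 and 89.3 in the replicates. The proneural genes sc, l(1)sc, ase, ato, amos and cato, and da, their common partner, had none. All HES genes of the list, h, dpn, Hey and cwo, thus had a summit, and ac was the only proneural gene with one. Those of h, cwo and ac are near the lowest signal of the list, 149.5. With the 2972 strongest peaks only, just dpn and emc of the 13 genes kept a summit, so this contrast rests on weak peaks.

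**Figure D5:**
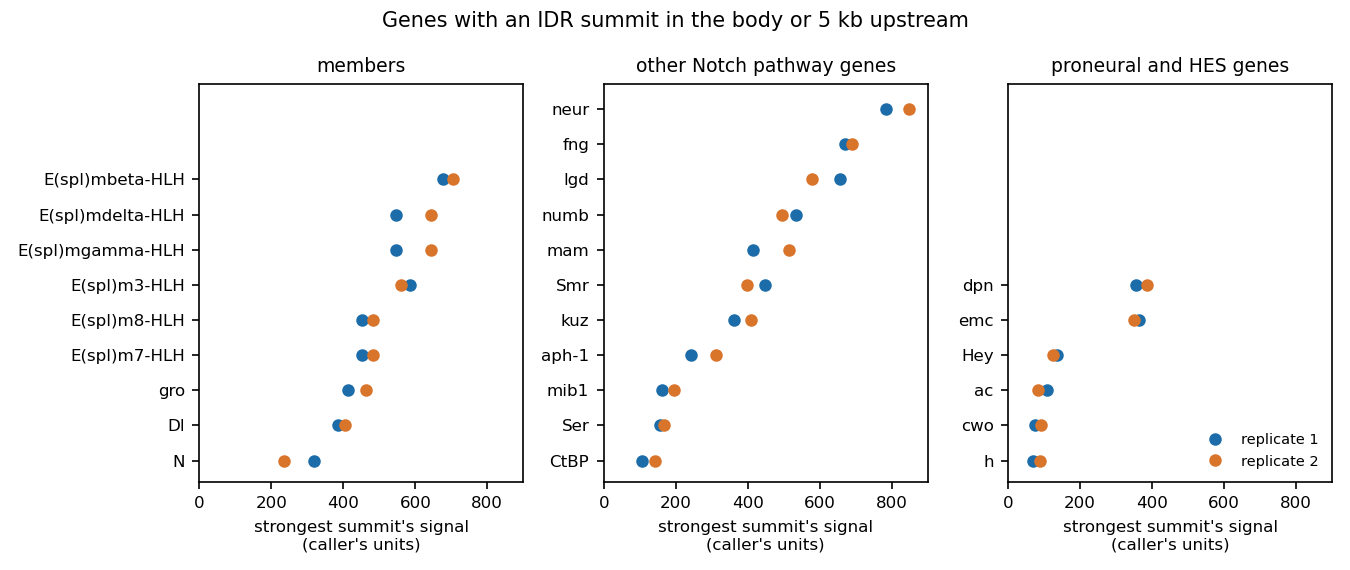
Signal of the strongest reproducible summit of each gene that has one, in replicate 1 (blue) and replicate 2 (orange), in the caller's units, for the members, other Notch pathway genes and proneural and HES genes, the last set with emc. mdelta with mgamma, and m7 with m8, share a summit, and neur lies above every other gene shown.

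Other genes with the same number of summits and the nearest strongest signals in both replicates were picked by rule. The measure was the summed absolute log2 difference of the strongest summit over the 2 replicates, where 0 is identity. For mbeta, with 3 summits, they were Alg3 (678 and 689, difference 0.036) and CG6983 (684 and 692, 0.041) among 267 genes. For N, with 5, they were Stat92E (269 and 257, 0.36) and dsx (273 and 281, 0.47) among 92. For Dl, with 4, they were Def (395 and 397, 0.063) and mtSSB (358 and 405, 0.11) among 130. For gro, with 1, they were Hexo2 (409 and 459, 0.025) and CG42494 (408 and 480, 0.060) among 1219.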

How the data were processed

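Per the labels and the deposited file list, chromatin was sonicated to 200 to 800 bp, and the authors made relaxed peak lists from each replicate and from both pooled, using 1 and the same control alignment for the replicates, and an IDR list from these. The deposited signal of each peak, in units of the authors' caller, was used as it stands. For the caller, the aligner and the IDR cutoff: not given in the sources used here. Depth is unknown, since the lists hold no read counts, so no interval is given. Lists on dm3 and the controls were not analysed here.

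Positions are 1-based on dm6 (Release 6), with gene models of Ensembl release 115 (FlyBase 6.54) on chromosomes X, 2L, 2R, 3L, 3R and 4, and sequences come from the RefSeq copy of that assembly. Summits were counted by position. Those of the replicates were matched within 100 bp. In the annotation Dl is listed as Delta, h as hry, nct as Nct and lgd as l(2)gd1, and 2 Bearded family symbols, BobB and BobC, were not analysed here. The members and lists were chosen with earlier results of these data known. Named genes were the members, the genes of the complex, up to 4 genes with the strongest summit per list and the 2 most alike genes by signal, and others were named to account for whole lists. Python 3.11.15, NumPy 2.4.6, pandas 2.3.3 and matplotlib 3.10.9 were used, and counting was tested on simulated data. Alternatives were the stronger part of the IDR list, each replicate alone, other windows, interval overlap and other matching distances.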

Additional observations from a re-analysis of the deposited data

How the results depend on the processing

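Of 47 recomputed values, 40 stayed within the limit of 1.5 times the count or 1 SD, and 7 moved. With gene bodies alone, without the upstream 5 kb, 3 members had a reproducible summit in place of 9, distinct summits fell to 9 from 22, and proneural and HES genes with one to 2 from 6. With the 2972 strongest peaks only, distinct summits were 14 and proneural and HES genes 2. Members with a summit at a start were 2 in place of 6 with a window of 250 bp, and 2 when the peak interval had to cover a start. With 10 kb upstream all 10 members had a summit, and with 2 kb 7 did. For each replicate alone, its relaxed list was cut to the 5944 strongest peaks. On these cut lists, members were 9 both times, distinct summits 20 both times, and members with a summit at a start 5 to 6. Summits in the complex were 13 both times, other Notch pathway genes 12 both times, and proneural and HES genes 5 to 6. Summits within 250 bp merged, an alternative added after the data were seen, left 20 and 11 in the complex. A match within 50 bp kept 17 of the 22 in both replicates (median log2 ratio −0.09), centring on all summits gave a median of 0.036, and the strongest replicate summit within 150 bp, also added later, gave 22 matches and −0.08. No paired analysis was possible because there is 1 group.

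Unknown depth limits what the absence of a summit says: within 500 bp of the m5, mgamma and m8 starts a reproducible peak was not found at this depth. Overlapping windows, 2 replicates, a shared control and whole animals limit every count.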
